A study of Mus musculus with 13 samples.

Results

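The 7 haematopoietic growth factor receptor genes Flt3, Kit, Csf1r, Csf3r, Csf2ra, Csf2rb and Csf2rb2 were taken by their gene symbols from the gene tables, which hold 24532 genes. RNA-seq was performed on 7 subsets sorted from cultures of C57BL/6 mouse bone marrow, in 13 libraries; the study's methods give an age of 8 to 14 weeks for the mice and of 8 to 10 days for the cultures. In culture with FLT3 ligand (FLT3L), 9 libraries were made. The non-DCs were the CD115+ CX3CR1+ cells of the type 2 conventional dendritic cell (cDC2) gate. The study concludes from culture experiments that they are precursors of cDC2s. Mature FL-cDC1s (CD83+) and immature FL-cDC1s (CD83-) were the CD115- CX3CR1- cells of the type 1 gate. Mature FL-cDC2s (CD83+) and immature FL-cDC2s (CD83-) were the CD115- CX3CR1- cells of the same gate as the non-DCs. In culture with GM-CSF, 4 libraries were made, from GM-DCs (CD11b intermediate, MHC class II high) and GM-Macs (CD11b high, MHC class II intermediate). Non-DCs and GM-Macs are called macrophage-like below for their macrophage marker RNA, not for their origin. Mature FL-cDC1s, which were scarce, gave 1 library, and the other subsets 2 each. The methods state that RNA of a subset was extracted 2 times, but not whether from separate cultures or mice, so the p-values below measure only the spread between libraries, which may be technical. Every culture had 1 of the 2 growth factors added, so none shows the receptors without such a factor.

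Growth factor receptors tell a haematopoietic cell which colony-stimulating factors it can answer. FLT3 and KIT are receptor tyrosine kinases of progenitors that bind FLT3L (FLT3) and stem cell factor (KIT), and FLT3 stays on the DC lineage, which depends on its ligand. CSF1R (CD115), a kinase of the same family, binds CSF1 and IL-34 and is the defining growth factor receptor of monocytes and macrophages. CSF3R binds G-CSF and is best known from neutrophils, but monocytes carry it as well. The GM-CSF receptor pairs a ligand-specific alpha chain, CSF2RA, with the beta common chain CSF2RB, which signals through JAK2 and STAT5 and also serves the IL-3 and IL-5 receptors. Mice carry an extra beta chain, CSF2RB2, that works with the IL-3 receptor.

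Csf2rb (Entrez gene 12983, chromosome 15 from 78325800 to 78351001) and Csf2rb2 (Entrez gene 12984, chromosome 15 from 78282507 to 78305721) lie 20079 bases apart in mm10, and their levels have to be read with their likeness in mind. Over 2631 aligned bases of the coding sequence (GENCODE vM21 transcripts, global alignment) 2505 were identical, which is 95.2%. Of all windows of 100 bases along the Csf2rb transcript, 7.16% occurred unchanged in the Csf2rb2 transcript, and for windows of 50 bases the share was 18.9%. How reads that match both genes were divided is not given in the sources used here, so a part of the reads of either gene is uncertain. The stretch of 90 coding bases with the most differences held 16, shown in capitals, from coding base 308 in Csf2rb and from 311 in Csf2rb2. It is shown because reads over such bases tell the 2 genes apart.
Csf2rb: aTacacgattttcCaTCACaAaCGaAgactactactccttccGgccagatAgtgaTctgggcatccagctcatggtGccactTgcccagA
Csf2rb2: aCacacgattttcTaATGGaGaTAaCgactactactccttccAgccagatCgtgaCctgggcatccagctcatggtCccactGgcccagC
The longest run shared without a difference spanned 242 coding bases, from coding base 2083 to 2324 in both genes, and reads inside it fit either gene.

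The promoters of Flt3, Kit and Csf3r are printed because these genes differ widely between the DC and the macrophage-like subsets in the values below. RefSeq promoter sequences (GRCm38.p6, the 250 bases before the start site) were at hand for 5 of the 7 genes. The letters GAGGAA, the purine box that factors of the PU.1 type bind, were searched on both strands and are in capitals. They occurred in 4 of the 5 promoters (Kit, Csf2ra, Csf2rb2 and Csf3r), against 23.1% of 27025 promoters of all genes. No other motif overlaps them here, apart from a pair of boxes that follow each other directly in Csf2ra, at positions -14 and -8 from its start site. The search for TGTGGT (RUNX), CCAAT and TATAAA on both strands gave no match in these 5 windows, against 14.2%, 34.5% and 13% of all promoters. These matches describe the letters and were not tested as binding sites.
Flt3 (chr5:147400490-147400739, minus strand): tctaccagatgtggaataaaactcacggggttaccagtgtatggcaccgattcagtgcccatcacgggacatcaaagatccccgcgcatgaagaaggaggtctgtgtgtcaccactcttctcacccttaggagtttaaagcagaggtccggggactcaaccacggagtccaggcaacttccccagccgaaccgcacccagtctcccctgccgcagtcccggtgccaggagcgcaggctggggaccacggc
Kit (chr5:75574737-75574986, plus strand): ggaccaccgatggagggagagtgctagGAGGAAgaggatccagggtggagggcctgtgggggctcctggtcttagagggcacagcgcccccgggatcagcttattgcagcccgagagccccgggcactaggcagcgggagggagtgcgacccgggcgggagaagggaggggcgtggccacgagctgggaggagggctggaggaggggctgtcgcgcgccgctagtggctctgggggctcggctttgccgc
Csf3r (chr4:126024409-126024658, plus strand): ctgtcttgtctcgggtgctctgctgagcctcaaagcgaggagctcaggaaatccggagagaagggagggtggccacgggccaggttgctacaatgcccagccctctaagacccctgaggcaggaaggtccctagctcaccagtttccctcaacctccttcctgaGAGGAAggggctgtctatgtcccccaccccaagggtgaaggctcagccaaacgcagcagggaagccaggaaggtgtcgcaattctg

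The libraries held 46.04 to 71.33 x 1e6 counted reads, and 3 reads, the floor used for a gene not seen, corresponded to 0.0421 to 0.0652 counts per 1e6 reads (CPM). All 7 receptors passed the filter on low counts in every fit. Levels are given in FPKM, fragments per kilobase of exon and 1e6 mapped fragments, so that genes of different length can be compared. The FPKM values come from 6 tables that were not normalized together. The 6 libraries of the cDC2 gate share a table, and 1 GM-DC and 1 GM-Mac library share another. The rest have tables by subset or library, with mature and immature FL-cDC1s in separate ones. Between gates or cultures, and between mature and immature FL-cDC1s, the subset and the table therefore cannot be told apart. The other GM-DC library and the other GM-Mac library also have a table each. Of the 7 cDC1 markers, Xcr1 and Clec9a were at 44.6 and 5.25 FPKM or above in FL-cDC1 libraries, and at most at 0.875 and 1.16 FPKM in all others. Irf8, Batf3 and Cadm1 overlapped with other subsets, with Cadm1 at 22.5 FPKM in mature FL-cDC1s and 91.5 and 81.8 FPKM in immature FL-cDC2s. Of the sorting markers, Cd83 was at 1452 to 3888 FPKM in both mature FL-cDC types and GM-DCs and at 45.1 to 271 FPKM elsewhere, and Cx3cr1 at 161 and 89.9 FPKM in non-DCs and at most at 45.4 FPKM elsewhere. The summed mature DC markers were at 10705 to 18642 FPKM in the mature FL-cDCs of both types and in GM-DCs, against 157 to 744 FPKM in the other subsets. Cd209a and Clec10a, markers of cDC2s, were at 0.283 and 0.0704 FPKM or below in mature FL-cDC2s, and Mgl2 was listed at 0 there, whereas Sirpa, the gene of the gate marker CD172α, was at 58.1 and 39.0 FPKM and Irf4 at 11.96 and 12.63 FPKM. In bulk RNA, fewer cells with a receptor and less receptor RNA per cell cannot be told apart.

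Flt3 (Entrez gene 14255, chromosome 5 from 147330741 to 147400489) split the subsets into 3 tiers. Non-DCs had 0.635 and 0.381 FPKM. Mature FL-cDC1s had 88.9 FPKM, immature FL-cDC1s 108 and 63.5 FPKM, mature FL-cDC2s 108 and 74.3 FPKM and immature FL-cDC2s 133 and 186 FPKM. GM-DCs had 11.6 and 7.59 FPKM, and GM-Macs 0.913 and 0.111 FPKM. The 4 FL-cDC subsets thus stood above both GM-DC libraries, and these above every macrophage-like library, while the values of mature FL-cDC2s overlapped with those of both FL-cDC1 subsets, and the values of GM-Macs with those of non-DCs. The protein of Flt3 was not used to sort these subsets.

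**Figure D1:**
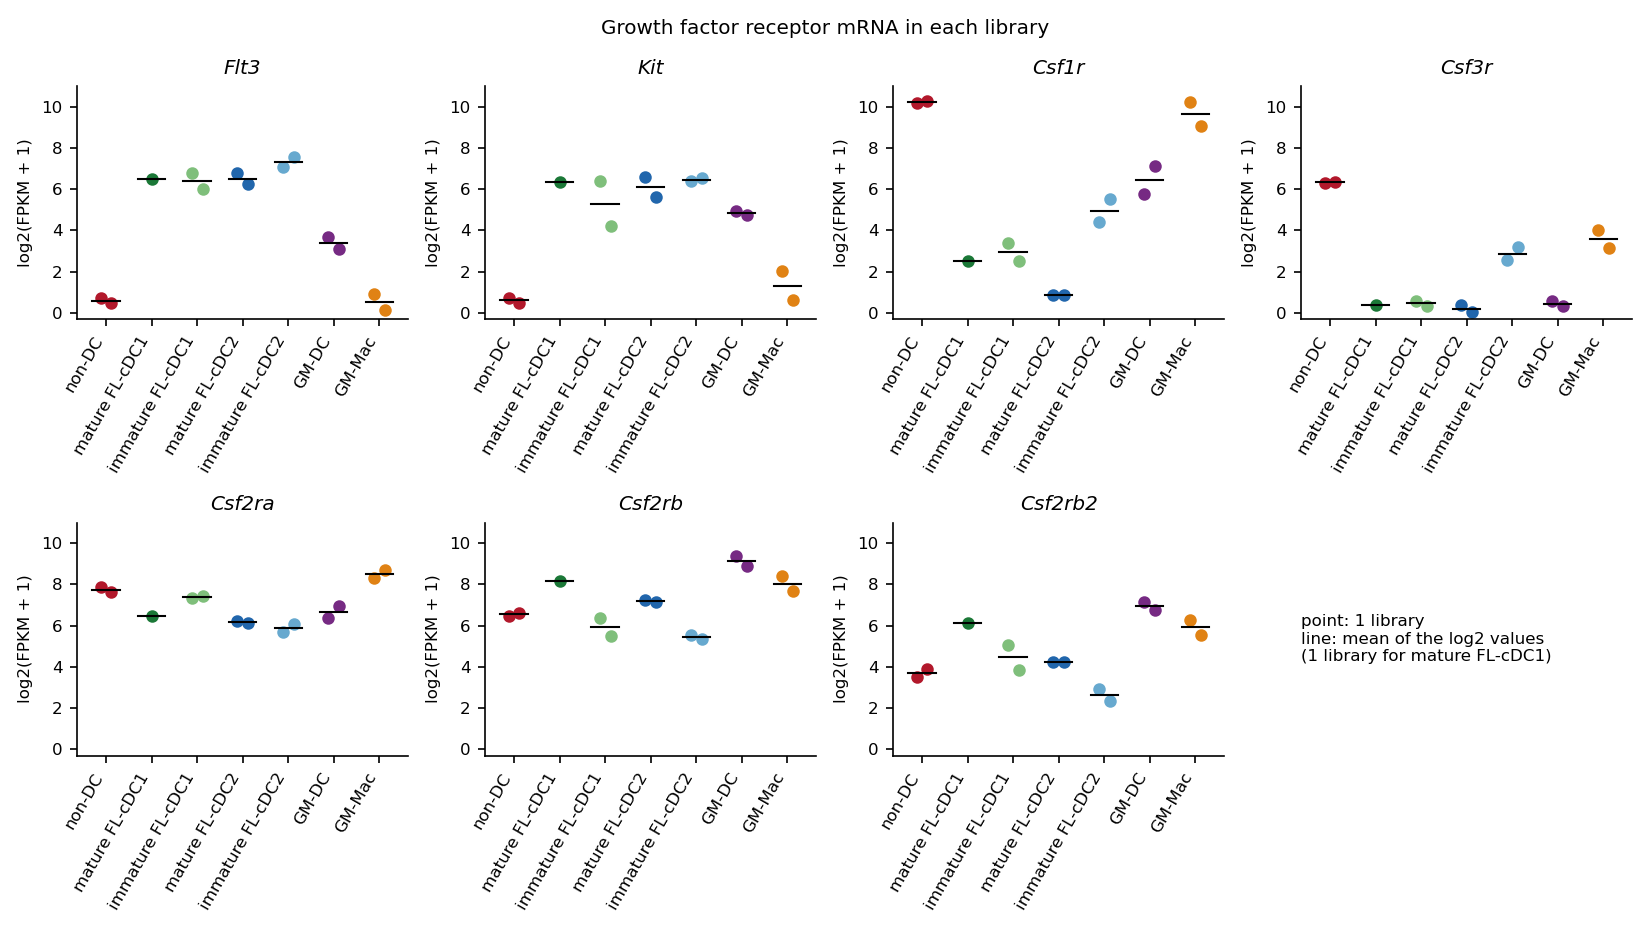
Levels of the 7 receptors as log2(FPKM + 1), 1 panel a gene, with the 7 subsets along the horizontal axis, 1 point for each of 13 libraries and a line at the mean of the log2 values. Flt3 and Kit are low in non-DCs and GM-Macs, where Csf1r is highest, and Csf3r is highest in non-DCs.

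Non-DCs had 201.8-fold less Flt3 than immature FL-cDC2s, although both were sorted from the same gate of the same culture (log2 fold change -7.66 with a standard error of 0.42, adjusted p = 2.01e-05). Here and below, p-values come from the quasi-likelihood F test of edgeR and were adjusted by Benjamini-Hochberg over all genes tested. Against mature FL-cDC2s the difference was 152.7-fold (log2 fold change -7.25, adjusted p = 7.81e-06). Cells grown with FLT3L and sorted through the cDC2 gate therefore included non-DC libraries with 130 and 67 Flt3 reads in all. GM-DCs had 16.13-fold more Flt3 than GM-Macs (log2 fold change 4.01, standard error 0.87, adjusted p = 0.0232), and the log2 fold change was 6.18 without GM-Mac replicate 1 and 3.23 without GM-Mac replicate 2. Mature FL-cDC2s had 10.58-fold more than GM-DCs (adjusted p = 0.00642), a comparison across cultures, and without GM-DC replicate 2 the adjusted p was 0.0647. Between mature and immature FL-cDC2s, Flt3 did not pass the test (log2 fold change -0.40, 95% interval -1.11 to 0.31, adjusted p = 0.319), although the libraries did not overlap and limma on log2(FPKM + 1) gave an adjusted p of 0.0274. It did not pass between mature and immature FL-cDC1s either (log2 fold change 0.01, 95% interval -1.70 to 1.72).

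Kit (Entrez gene 16590, chromosome 5 from 75574987 to 75656722) followed the same outline with a smaller gap between the cultures. Non-DCs had 0.664 and 0.409 FPKM. It reached 80.1 FPKM in mature FL-cDC1s, against 84.3 and 17.3 FPKM in immature FL-cDC1s, and 96.1 and 47.7 FPKM in mature FL-cDC2s, against 82.1 and 92.4 FPKM in immature FL-cDC2s. GM-DCs had 29.8 and 25.9 FPKM and GM-Macs 3.09 and 0.544 FPKM. Immature FL-cDC1 replicate 2 thus lay below both GM-DC libraries, whereas replicate 1 matched the other FL-cDCs. Non-DCs had 104.7-fold less Kit than immature FL-cDC2s (log2 fold change -6.71, standard error 0.45, adjusted p = 3.07e-05) and 114.5-fold less than mature FL-cDC2s (adjusted p = 1.54e-05). GM-DCs had 13.31-fold more than GM-Macs (log2 fold change 3.73, standard error 0.74, adjusted p = 0.0176), or 5.44 on the log2 scale without GM-Mac replicate 1 and 3.01 without GM-Mac replicate 2. Mature FL-cDC2s and GM-DCs did not differ past the threshold (log2 fold change 1.52, 95% interval -0.12 to 3.17, adjusted p = 0.179), although a fit on these 4 libraries alone gave an adjusted p of 0.00724.

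Mast cells and basophils also carry KIT, so their markers were read beside it. The 10 markers of that list summed to at most 3.94 FPKM in any library (a GM-DC one, led by Gata2), and Ms4a2, Mcpt4 and Cma1 were listed at 0 in every FL-cDC and GM-DC library. In mature FL-cDC2s, Cpa3 was at 0.771 and 0.652 FPKM and Prss34 at 0.119 and 0.101 FPKM. Both were listed at 0 in immature FL-cDC2s, where Hdc was at 1.70 and 1.16 FPKM. Progenitor markers were present, led by Ly6a or Sox4, and summed to 208 and 545 FPKM in immature FL-cDC1s and to at most 134 FPKM elsewhere. Their part in the Kit level was not tested. Kit was below Flt3 in 7 of 7 FL-cDC libraries and above it in both libraries each of non-DCs, GM-DCs and GM-Macs.

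Csf1r (Entrez gene 12978, chromosome 18 from 61105572 to 61131139) ran opposite to Flt3. Non-DCs had 1157 and 1243 FPKM, against 1195 and 524 FPKM in GM-Macs, which placed it between percentiles 99.03 and 99.66 of the genes at 1 FPKM or more in these libraries. Mature FL-cDC1s had 4.69 FPKM, immature FL-cDC1s 9.52 and 4.77 FPKM, mature FL-cDC2s 0.833 and 0.799 FPKM and immature FL-cDC2s 20.1 and 44.6 FPKM. GM-DCs had 53.6 and 137.8 FPKM, below both GM-Mac libraries. Ordered by level, each neighbour was separated from the next except non-DCs and GM-Macs, though immature FL-cDC1 replicate 2 was within 0.1 FPKM of the mature FL-cDC1 library. CD115, the protein of Csf1r, chose the FLT3L subsets, so that the gap between non-DCs and FL-cDC2s describes the sort. Non-DCs had 56.51-fold more Csf1r than immature FL-cDC2s (log2 fold change 5.82, or 6.58 without immature FL-cDC2 replicate 2) and 1695-fold more than mature FL-cDC2s (log2 fold change 10.73).

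Csf1r also differed between subsets with the same CD115 gate, or none. Mature FL-cDC2s had 29.99-fold less than immature FL-cDC2s, both being CD115- (log2 fold change -4.91, standard error 0.44, adjusted p = 6.93e-05), or -4.15 on the log2 scale without immature FL-cDC2 replicate 2. GM-DCs, gated on CD11b and MHC class II, had 10.36-fold less than GM-Macs (log2 fold change -3.37, standard error 0.65, adjusted p = 0.0157), with -4.24 on the log2 scale without GM-DC replicate 2 and -2.69 without GM-Mac replicate 1. Across cultures, where CD115 sorted the FLT3L side only, mature FL-cDC2s had 105.9-fold less than GM-DCs (log2 fold change -6.73, adjusted p = 0.000155), and -5.85 on the log2 scale without GM-DC replicate 2. Non-DCs, sorted as CD115+, and GM-Macs, not sorted on it, did not differ past the threshold (log2 fold change 0.66, 95% interval -0.54 to 1.85). Immature FL-cDC1s had 3.458-fold less than immature FL-cDC2s (adjusted p = 0.0445), a call lost without either immature FL-cDC1 library (adjusted p = 0.0577 without replicate 1 and 0.225 without replicate 2), without immature FL-cDC2 replicate 2 (0.305) and with a replicate block (0.0668).

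Macrophage markers moved with Csf1r between most subsets. The 8 markers summed to 37710 to 43127 FPKM in non-DCs, to 46.8 to 47.9 FPKM in mature FL-cDC2s, where C1qa was listed at 0, and to 968 to 1756 FPKM in immature FL-cDC2s. They summed to 946 to 1918 FPKM in GM-DCs and 34422 to 66992 FPKM in GM-Macs. Within a subset the libraries did not keep this order. The library with more Csf1r had the higher sum in mature FL-cDC2s, immature FL-cDC2s and GM-DCs, and the lower sum in non-DCs, immature FL-cDC1s and GM-Macs. Immature FL-cDC1s had sums of 4025 to 4474 FPKM, nearly all from Lyz2, with under 10 FPKM of Csf1r. The part of such cells in the Csf1r level was not tested.

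Csf3r (Entrez gene 12986, chromosome 4 from 126023441 to 126044975) was highest in non-DCs, with lower levels in immature FL-cDC2s and GM-Macs. Non-DCs had 78.8 and 79.7 FPKM, immature FL-cDC2s 4.84 and 8.14 FPKM and GM-Macs 15.1 and 7.96 FPKM. Every other library was below 0.5 FPKM, down to 0.0156 FPKM, which was 4 reads, in mature FL-cDC2 replicate 2. Both non-DC libraries thus stood alone at the top, and GM-Macs and immature FL-cDC2s overlapped. Non-DCs had 18.61-fold more Csf3r than immature FL-cDC2s (log2 fold change 4.22, standard error 0.76, adjusted p = 0.003) and 598.6-fold more than mature FL-cDC2s (log2 fold change 9.23, adjusted p = 0.000155). Mature FL-cDC2s had 32.16-fold less than immature FL-cDC2s (log2 fold change -5.01, standard error 0.84, adjusted p = 0.0019), and GM-DCs 36.59-fold less than GM-Macs (log2 fold change -5.19, adjusted p = 0.00348). The sizes against mature FL-cDC2s rest on few reads: without their replicate 1 the log2 fold changes were 12.42 for non-DCs over mature FL-cDC2s and -8.22 for mature over immature FL-cDC2s, and without their replicate 2 they were 8.30 and -4.07. Immature FL-cDC1s had 12.33-fold less than immature FL-cDC2s (adjusted p = 0.012), which did not pass without immature FL-cDC2 replicate 2 (0.0648) or immature FL-cDC1 replicate 2 (0.0757).

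Non-DCs also had 7.732-fold more Csf3r than GM-Macs (log2 fold change 2.95, standard error 0.77, adjusted p = 0.024), a comparison across cultures. That call did not survive the loss of non-DC replicate 1 (adjusted p = 0.0847), non-DC replicate 2 (0.104) or GM-Mac replicate 2 (0.117). Neutrophils are the best-known source of Csf3r, and the 10 neutrophil markers other than Mmp8 summed to 0.813 to 0.974 FPKM in non-DCs and 5.76 to 11.5 FPKM in GM-Macs. S100a9, Ly6g, Ngp, Ltf, Cxcr2 and Retnlg were listed at 0 in non-DCs. Camp was at 0.553 and 0.351 FPKM there and listed at 0 in every other library. It was called higher in non-DCs than in immature FL-cDC2s (adjusted p = 0.0128). S100a8, Mpo and Elane were at 0.323 FPKM or below in non-DCs. The remaining marker, the collagenase Mmp8, averaged 405 FPKM in non-DCs and 418 FPKM in GM-Macs. Non-DCs had 145-fold more Mmp8 than immature FL-cDC2s (adjusted p = 0.00139). The monocyte markers summed to 342 to 402 FPKM in non-DCs and 528 to 939 FPKM in GM-Macs, and their part in the Csf3r level was not tested.

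Csf2ra (Entrez gene 12982, chromosome 19 from 61217191 to 61228461), the GM-CSF-specific chain, was the most even of the receptors. Non-DCs had 234 and 195 FPKM, mature FL-cDC1s 88.1 FPKM and immature FL-cDC1s 161 and 173 FPKM. Mature FL-cDC2s had 73.7 and 68.1 FPKM and immature FL-cDC2s 50.4 and 66.8 FPKM. GM-DCs had 81.0 and 122.9 FPKM, against 313 and 418 FPKM in GM-Macs. The macrophage-like subset was the higher one in both cultures. GM-DCs had 4.27-fold less than GM-Macs (log2 fold change -2.09, standard error 0.41, adjusted p = 0.0169), though without GM-DC replicate 1 the adjusted p was 0.0846. Non-DCs had 5.627-fold more than immature FL-cDC2s (adjusted p = 0.000132) and 3.5-fold more than mature FL-cDC2s (adjusted p = 0.000424). Immature FL-cDC1s had 3.901-fold more than immature FL-cDC2s (log2 fold change 1.96, adjusted p = 0.00248). Mature FL-cDC1s did not differ from immature FL-cDC1s past the threshold (log2 fold change -1.005, 95% interval -1.88 to -0.13, adjusted p = 0.0958).

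Between mature and immature FL-cDC2s, Csf2ra was 1.608-fold higher (log2 fold change 0.68, standard error 0.23, adjusted p = 0.0383). This was the least stable of the calls: the adjusted p was 0.0509 without the filter on low counts, 0.0722 with a replicate block, 0.144 in the fit of all 13 libraries, 0.294 when scaled by library size alone and 0.258 by limma on log2(FPKM + 1). It was 0.143 without immature FL-cDC2 replicate 1, and 0.133 and 0.0868 without mature FL-cDC2 replicates 1 and 2.

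The beta common chain, Csf2rb, was highest in GM-DCs and was higher in the mature than in the immature subset of both cDC types. Non-DCs had 87.9 and 97.9 FPKM. Mature FL-cDC1s had 281 FPKM, against 82.5 and 44.6 FPKM in immature FL-cDC1s, and mature FL-cDC2s 152 and 139 FPKM, against 45.6 and 40.4 FPKM in immature FL-cDC2s. GM-DCs had 673 and 472 FPKM, against 340 and 203 FPKM in GM-Macs. The mature and immature libraries overlapped in neither cDC type. Mature FL-cDC2s had 4.526-fold more than immature FL-cDC2s (log2 fold change 2.18, standard error 0.19, adjusted p = 6.9e-05). Mature FL-cDC1s had 4.323-fold more than immature FL-cDC1s (log2 fold change 2.11, standard error 0.35, adjusted p = 0.00255), with the spread of the single mature library taken from the other subsets. The maturation changes of the 2 types differed by -0.03 on the log2 scale, with a 95% interval from -1.08 to 1.02.

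Csf2rb did not pass the test between GM-DCs and GM-Macs (log2 fold change 0.85, 95% interval -0.13 to 1.82, adjusted p = 0.199), but passed without GM-Mac replicate 1 (0.0476). Mature FL-cDC2s had 3.523-fold less than GM-DCs (log2 fold change -1.82, adjusted p = 0.00234), and non-DCs 2.596-fold less than GM-Macs (log2 fold change -1.38, adjusted p = 0.0122), so the subset from GM-CSF culture was the higher one in both pairs. The second of these calls was lost without non-DC replicate 1 (0.0959) or replicate 2 (0.0836). Non-DCs had 3.342-fold more than immature FL-cDC2s (adjusted p = 0.000259). Against mature FL-cDC2s they did not pass the test (log2 fold change -0.44, adjusted p = 0.0799), although DESeq2's Wald test gave 0.0203 and scaling by library size alone 0.0148. Immature FL-cDC1s had 1.973-fold more than immature FL-cDC2s (adjusted p = 0.0442), a call lost in 7 of 12 alternatives, among them those without immature FL-cDC2 replicate 1 (0.129), immature FL-cDC2 replicate 2 (0.183) and immature FL-cDC1 replicate 1 (0.18).

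Csf2rb2 ran at a lower level than Csf2rb, and its mean was again highest in GM-DCs and lowest in immature FL-cDC2s. Immature FL-cDC1s ranked differently, with a mean of 22.9 FPKM of Csf2rb2, above mature FL-cDC2s (18.1 FPKM) and non-DCs (12.3 FPKM). In Csf2rb their mean of 63.6 FPKM lay below both of these subsets. Non-DCs had 10.5 and 14.1 FPKM. Mature FL-cDC1s had 68.7 FPKM, against 32.3 and 13.6 FPKM in immature FL-cDC1s, and mature FL-cDC2s 18.2 and 18.1 FPKM, against 6.59 and 4.05 FPKM in immature FL-cDC2s. GM-DCs had 142 and 107 FPKM, against 77.4 and 45.9 FPKM in GM-Macs, a pair that did not pass the test (log2 fold change 0.79, adjusted p = 0.188) except without GM-Mac replicate 1 (0.0426). Mature FL-cDC2s had 4.579-fold more than immature FL-cDC2s (log2 fold change 2.19, standard error 0.26, adjusted p = 0.000343). Mature FL-cDC1s had 2.962-fold more than immature FL-cDC1s (adjusted p = 0.0278), which did not pass without immature FL-cDC1 replicate 2 (0.104). Immature FL-cDC1s had 5.704-fold more than immature FL-cDC2s (log2 fold change 2.51, adjusted p = 0.00179), and mature FL-cDC2s 6.149-fold less than GM-DCs (log2 fold change -2.62, adjusted p = 0.00108). Non-DCs had 4.465-fold less than GM-Macs (adjusted p = 0.00448), or 0.0523 without non-DC replicate 1.

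**Figure D2:**
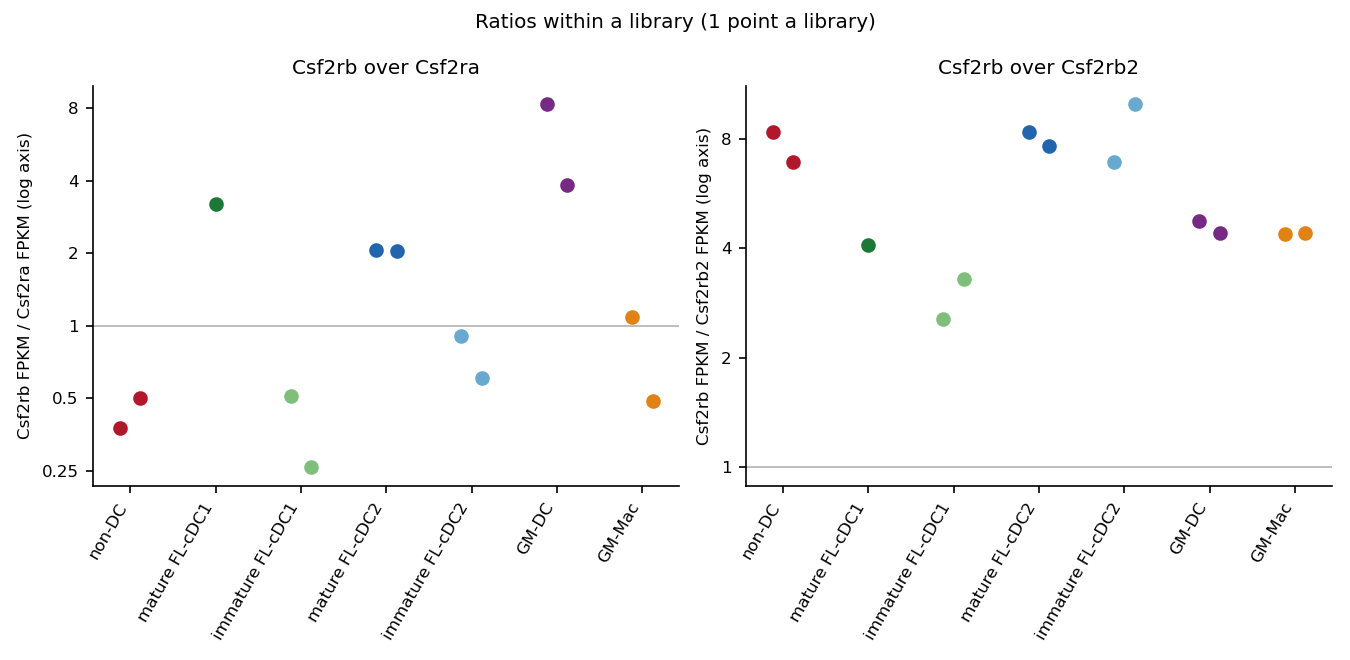
Ratio of Csf2rb FPKM to Csf2ra FPKM (left) and to Csf2rb2 FPKM (right) on log axes, 1 point for each library, by subset. Csf2rb exceeds Csf2ra in all 5 libraries of mature FL-cDCs and GM-DCs, and the ratio to Csf2rb2 is highest in the 6 libraries of the cDC2 gate.

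The ratio of the beta common chain to the alpha chain, taken within a library and therefore free of its scaling, followed maturity. Csf2rb over Csf2ra was 0.375 and 0.501 in non-DCs. Mature FL-cDC1s had a ratio of 3.20, against 0.512 and 0.258 in immature FL-cDC1s. For mature FL-cDC2s it was 2.07 and 2.04, against 0.904 and 0.605 in immature FL-cDC2s. GM-DCs, which carry the maturation markers, had 8.31 and 3.84, against 1.08 and 0.484 in GM-Macs. Every library of a CD83+ or GM-DC subset lay above every other library in this ratio, which is described here without a test. The ratio of Csf2rb to Csf2rb2 was 2.56 to 4.10 in the 3 FL-cDC1 libraries, 6.92 to 9.97 in the 6 libraries of the cDC2 gate and 4.38 to 4.75 in the 4 GM-CSF libraries. It therefore followed the gate and culture more than maturity, and as the cDC2 gate is also a table of its own, subset, table and the division of shared reads cannot be told apart.

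**Figure D3:**
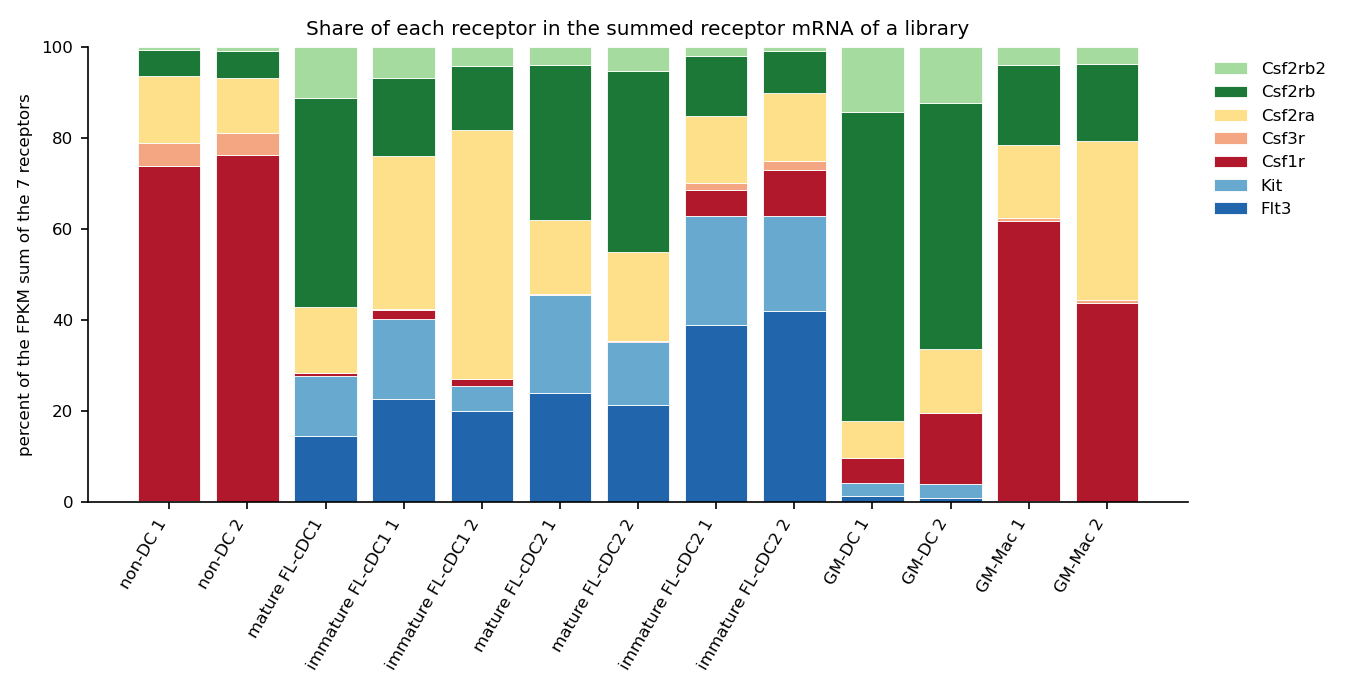
Share of each receptor, in percent, in the FPKM sum of the 7 receptors, 1 bar for each of 13 libraries. Csf1r fills 43.7% to 76.2% of the bars of non-DCs and GM-Macs, and Csf2rb 67.9% and 54.0% of those of GM-DCs.

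As a profile, 4 of the 7 receptors led a subset. The 7 genes summed to 317 to 1944 FPKM in a library. Csf1r made up 73.7% and 76.2% of this sum in non-DCs and 61.5% and 43.7% in GM-Macs. Csf2rb led mature FL-cDC1s with 45.97%, mature FL-cDC2s with 33.9% and 39.9%, and GM-DCs with 67.9% and 54.0%. Csf2ra led immature FL-cDC1s with 33.7% and 54.6%, and Flt3 led immature FL-cDC2s with 38.8% and 42.0%. Both cDC types thus changed their leading receptor with CD83, to the beta common chain in each case, with no test made of these shares.

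**Figure D4:**
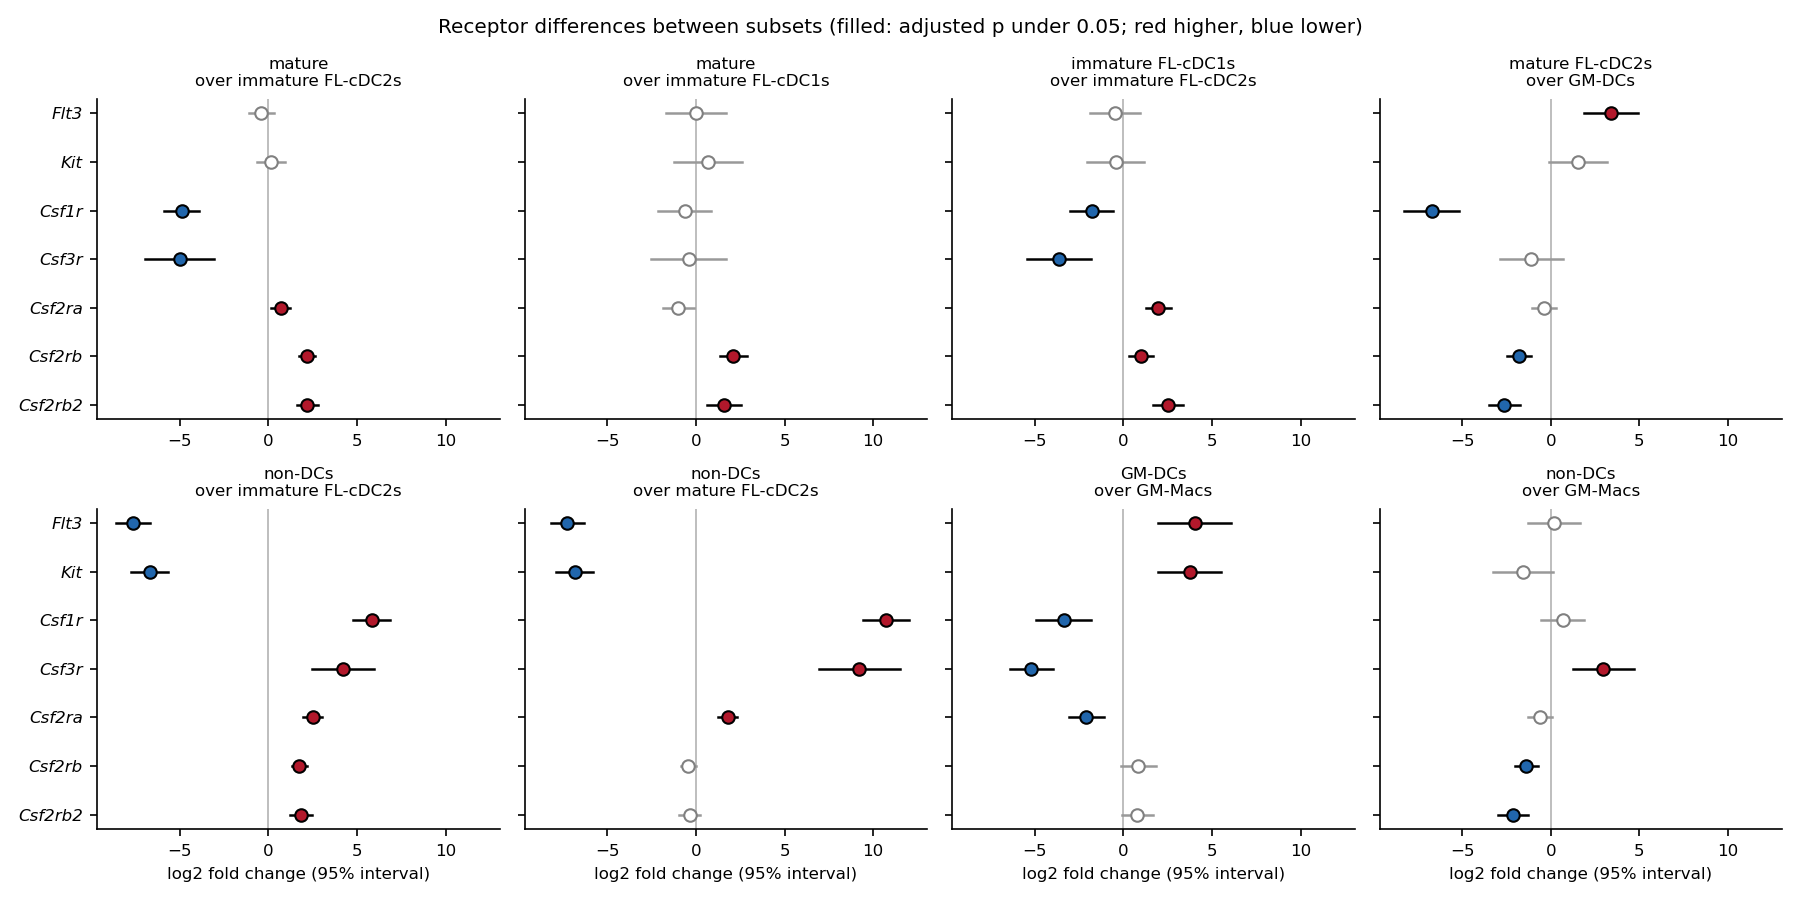
Log2 fold changes of the 7 receptors in 8 comparisons with 95% intervals, as points and bars, filled red (higher) or blue (lower) where the adjusted p was under 0.05. Csf1r and Csf3r lie far below 0 and Csf2rb and Csf2rb2 above it in mature over immature FL-cDC2s, while Flt3 and Kit lie far below 0 in both comparisons of non-DCs with FL-cDC2s.

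Counted over the set, mature FL-cDC2s had 3 receptors higher and 2 lower than immature FL-cDC2s, with 2 not passing the test, where 46.5% of all tested genes passed it (22.5% higher and 24% lower). Non-DCs had 5 higher and 2 lower than immature FL-cDC2s (47.6% of all genes, 24% higher and 23.6% lower), and 3 higher and 2 lower than mature FL-cDC2s (53.5%, 27.1% higher and 26.4% lower). GM-DCs had 2 higher and 3 lower than GM-Macs (19.3%, 8.71% higher and 10.6% lower). Across cultures or gates, non-DCs had 1 higher and 2 lower than GM-Macs (20.5%, 9.29% higher and 11.2% lower), mature FL-cDC2s 1 higher and 3 lower than GM-DCs (20.6%, 7.75% higher and 12.9% lower), and immature FL-cDC1s 3 higher and 2 lower than immature FL-cDC2s (20.3%, 8.9% higher and 11.4% lower). Mature FL-cDC1s had 2 higher and none lower than immature FL-cDC1s (20.9%, 12.6% higher and 8.28% lower). Given these shares of all genes, the counts within the cDC2 gate describe the receptors and do not set them apart from other genes. The median log2 fold change of the 7 receptors was 0.13 in mature over immature FL-cDC2s, beside 0 over all genes, as the set moved in both directions.

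The change with maturation was compared between the cDC types, and the DC to macrophage-like difference between the cultures. Maturation differed for 1 of the 7, Csf1r (6.03% of all genes passed, 5% higher and 1.03% lower): the change of FL-cDC1s was 4.31 higher on the log2 scale than that of FL-cDC2s (standard error 0.85, adjusted p = 0.0152), with a change of -0.64 in FL-cDC1s and of -4.91 in FL-cDC2s, the second from the fit of the cDC2 gate. Without mature FL-cDC2 replicate 1 or 2 or immature FL-cDC1 replicate 2 it did not pass (adjusted p = 0.0584, 0.066 and 0.0557). Csf3r had a difference of 4.62 that missed the threshold (adjusted p = 0.0529), in a gene below 0.5 FPKM in all FL-cDC1s, and passed it in 6 of 13 alternatives. In the comparison of cultures (8.51% of all genes passed, 5.31% higher and 3.2% lower), GM-DCs over GM-Macs was 7.39 higher than mature FL-cDC2s over non-DCs for Csf1r (standard error 0.85, adjusted p = 0.000918) and 4.06 higher for Csf3r (standard error 1.10, adjusted p = 0.0487). The Csf3r call was lost without any 1 of the non-DC, GM-DC or GM-Mac libraries (0.0598 to 0.134), with DESeq2 size factors (0.0508), with library size alone (0.0651) and with the compared libraries alone (0.064). The Csf1r value sets a pair not sorted on CD115 against a pair sorted on it. Flt3 and Kit had differences of -3.23 (adjusted p = 0.062) and -3.08 (adjusted p = 0.106), which did not pass. Flt3 passed with DESeq2's Wald test (0.00685), with limma on log2(FPKM + 1) (0.00371) and without GM-Mac replicate 2 (0.00385), and Kit with the Wald test (0.0207) and without GM-Mac replicate 2 (0.0337).

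Most ligand genes were near 0 in all subsets. Csf2, Csf3, Il3, Il5 and Il34, the genes of GM-CSF, G-CSF, IL-3, IL-5 and a second CSF1R ligand, were at 0.0621 FPKM or below in every library. Csf1 was at 8.79 and 10.8 FPKM in non-DCs, the subset with the most Csf1r, and 18-fold higher there than in immature FL-cDC2s, which had 0.681 and 1.10 FPKM (adjusted p = 0.000105). It was also 2.606-fold higher in mature than in immature FL-cDC2s (adjusted p = 0.0122). Flt3l was between 0.981 and 4.53 FPKM everywhere and passed in no comparison, while Kitl, the gene of stem cell factor, reached at most 0.311 FPKM.

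Among the feedback inhibitors of cytokine receptors, Cish differed between the cultures. Cish, a target of STAT5 that is induced by GM-CSF, was at 139.9 and 154.0 FPKM in GM-DCs and 97.1 and 112 FPKM in GM-Macs, against at most 1.85 FPKM in the 9 libraries with FLT3L. Mature FL-cDC2s had 91.09-fold less Cish than GM-DCs (adjusted p = 0.000351) and non-DCs 124.5-fold less than GM-Macs (adjusted p = 0.000599). Within FLT3L culture, Cish was 34.44-fold higher in mature than in immature FL-cDC2s (adjusted p = 0.00509). Non-DCs had 20.78-fold more Cish than immature FL-cDC2s (adjusted p = 0.00973). Socs2, a relative of Cish, was at 265 and 266 FPKM in mature FL-cDC2s, against 0.365 and 0.705 FPKM in immature FL-cDC2s (656.7-fold higher, adjusted p = 8e-06). It was at 301 and 278 FPKM in GM-DCs, against 77.9 and 149.9 FPKM in GM-Macs, which did not pass (adjusted p = 0.138), nor did mature FL-cDC2s against GM-DCs (adjusted p = 0.992). Non-DCs, however, had 66.21-fold less Socs2 than GM-Macs (adjusted p = 0.000666). Socs1 and Socs3 were lower in that pair as well (adjusted p = 0.00181 and 0.0184). Socs3 was 7.837-fold lower in mature than in immature FL-cDC2s (adjusted p = 4.19e-05). Of the 15 negative regulators, 7 were higher and 7 lower in mature than in immature FL-cDC2s (22.5% and 24% of all genes), and 4 were higher and 2 lower in GM-DCs than in GM-Macs (8.71% and 10.6%).

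Cblb, a ubiquitin ligase that acts on tyrosine kinase receptors, was higher in the mature subset of both cDC types and in GM-DCs. Mature FL-cDC2s had 13.07-fold more Cblb than immature FL-cDC2s (adjusted p = 1.24e-05), and mature FL-cDC1s 12.81-fold more than immature FL-cDC1s (0.000352). GM-DCs had 13.5-fold more than GM-Macs (0.00588). Cbl, also among the negative regulators, was 1.829-fold lower in mature than in immature FL-cDC2s (adjusted p = 0.0104). It did not pass in GM-DCs over GM-Macs (0.304). Adam17, a protease that sheds CSF1R from the cell surface, reached 199 and 196 FPKM in non-DCs and at most 79.8 FPKM in any other library. Non-DCs had 5.562-fold more of it than immature FL-cDC2s (adjusted p = 0.000182). Dok2, an adaptor that damps kinase signals, reached 48.0 and 56.5 FPKM in non-DCs and 92.8 and 170.1 FPKM in GM-Macs. It was at most at 3.93 FPKM in all FL-cDCs, whereas GM-DCs had 6.63-fold less than GM-Macs (adjusted p = 0.0215).

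Among the 16 signal transducers, 5 were higher and 5 lower in mature than in immature FL-cDC2s (22.5% and 24% of all genes), and the higher ones included Jak2 and Stat5a, which act downstream of the beta chain. Jak2 was at 231 and 151 FPKM in mature FL-cDC2s, against 65.6 and 81.3 FPKM in immature FL-cDC2s (3.449-fold higher, adjusted p = 0.000988). It was at 404 and 331 FPKM in GM-DCs, against 37.4 and 13.8 FPKM in GM-Macs (12.37-fold higher, adjusted p = 0.00737). Stat5a was higher by 2.343-fold in mature FL-cDC2s (adjusted p = 0.0122), 3.256-fold in mature FL-cDC1s (0.0264) and 5.055-fold in GM-DCs (0.0109), each over its immature or macrophage counterpart. Stat5b, the other STAT5 gene, passed in none of these pairs (adjusted p = 0.323, 0.128 and 0.192). The kinase Lyn was 4.626-fold lower in mature than in immature FL-cDC2s (adjusted p = 5.23e-05). In mature over immature FL-cDC1s, 7 of the 16 were higher and none lower (12.6% and 8.28% of all genes), and in non-DCs over immature FL-cDC2s 1 was higher and 3 lower (24% and 23.6%).

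Of 12 other cytokine receptors, 9 could be tested in mature over immature FL-cDC2s, where 4 were higher and 2 lower (22.5% and 24% of all genes). Il3ra, the alpha chain that pairs with either beta chain, was at 2.22 to 12.9 FPKM throughout, far below the beta common chain, and was 2.909-fold higher in mature than in immature FL-cDC2s (adjusted p = 0.00581). Il5ra, which pairs with the beta common chain, was at 0.939 FPKM in mature FL-cDC1s and at most at 0.206 FPKM elsewhere. Il7r was at 89.1 and 92.9 FPKM in GM-DCs against 20.6 and 19.2 FPKM in GM-Macs (3.856-fold higher, adjusted p = 0.00848). Il2rg, the common gamma chain, was high in all subsets, from 94.6 to 846 FPKM. Epor and Pdgfra were at 0.187 FPKM or below in every library.

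Transcription factors known to act on these receptor genes did not move as a block: of 13, of which 10 could be tested there, 2 were higher and 3 lower in mature than in immature FL-cDC2s (22.5% and 24% of all genes), and 4 higher and 2 lower in non-DCs than in immature FL-cDC2s (24% and 23.6%). Spi1, which encodes PU.1, was at 183 to 697 FPKM in every library, with non-DCs having 1.656-fold less than immature FL-cDC2s (adjusted p = 0.0205). Mitf, a factor of macrophages and osteoclasts, had 9.81 and 7.72 FPKM in non-DCs and 5.17 and 5.59 FPKM in GM-Macs, and at most 0.618 FPKM in every DC library. Fli1, an ETS factor, was 30.52-fold lower in mature than in immature FL-cDC2s (adjusted p = 7.32e-06), the direction of Csf1r and Csf3r. Irf8, a factor of cDC1s and monocytes, was 28.22-fold higher in the same comparison (adjusted p = 1.78e-05).

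The genes whose log2(FPKM + 1) values ran most like each receptor across the 13 libraries were sought among 7433 genes with a subset mean of 10 FPKM or more, as a description without a test, since libraries of a subset share their source. Flt3 was closest to Rab30 (Pearson r 0.98), a small GTPase, and Tbc1d10c (0.98). Kit was closest to Pold1 (0.98), a DNA polymerase subunit, and Dbr1 (0.98), an RNA debranching enzyme, and the third was the peptidase Dpp4 (0.98), at 1.198 and 1.43 FPKM in non-DCs and 105 and 149.7 FPKM in immature FL-cDC2s. Csf1r ran with Tlr4 (0.99), the endotoxin receptor, and the Fc receptor Fcgr3 (0.99), and Csf3r with Clec4e (0.99) and Tlr7 (0.98). Csf2ra was closest to Tex264 (0.97), an endoplasmic reticulum protein, and the lipid droplet protein Plin2 (0.95). Csf2rb and Csf2rb2 shared 2 of their 3 genes, Ehd1 (0.98 and 0.94), an endocytic recycling protein, and Acot2 (0.96 and 0.95), an acyl-CoA thioesterase. Of these 21 pairs, 16 remained with log2(FPKM + 0.1) and 9 with rank correlation.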

How the data were processed

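RNA was sequenced from low-input SMART-Seq libraries (PCR-amplified, no molecular identifiers) of sorted cells. Per the labels and methods, the authors trimmed reads and mapped them to mm10. For the aligner, the study's methods name HISAT and the submitters' processing notes name STAR (2.6.0c), with HTSeq and StringTie (1.3.4d) beside it, and which made these values is not settled. The authors deposited read counts (not normalized) and FPKM values per gene in 6 tables. FPKM served for levels and counts for tests.

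Counts were tested with edgeR 4.0.16 (quasi-likelihood F test, TMM, filterByExpr, two-sided, Benjamini-Hochberg over all genes tested, threshold 0.05) in R 4.3.3. Comparisons within the cDC2 gate used its 6 libraries (13242 genes), GM-DCs over GM-Macs 4 libraries (13083 genes), and all others the 13 libraries (14936 genes). Alternatives were DESeq2 1.42.0 (size factors, Wald test), library size alone, no filter, limma 3.58.1 on log2(FPKM + 1) and log2(FPKM + 0.1), a replicate block, other sets of libraries and leaving out each library. The test was also run on simulated counts, built from the means and dispersions of these data, and the outcome is not given here. The replicates of each subset differed by more than sampling noise, which cannot tell technical repeats from separate cultures. Each library was entered on its own in the tests.

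Named were the 7 receptors, listed ligands, receptors, signal transducers, negative regulators, transcription factors and sorting markers, and the 3 genes most like each receptor. These lists and members were chosen with earlier results of these data known. Cell type marker lists were fixed with them. Promoters came from RefSeq (GRCm38.p6) and transcripts from GENCODE vM21, aligned with Biopython 1.88. Intervals and floors cover counting error or library spread only.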

Additional observations from a re-analysis of the deposited data

Results flagged for a closer look

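Csf1r changed differently with maturation in the 2 cDC types: the log2 change in FL-cDC1s exceeded that in FL-cDC2s by 4.31 (adjusted p = 0.0152). The mature FL-cDC1 side is 1 library, at 4.69 FPKM, against 9.52 and 4.77 FPKM in immature FL-cDC1s. Mature FL-cDC2s had 0.833 and 0.799 FPKM, against 20.1 and 44.6 FPKM in immature FL-cDC2s. Without mature FL-cDC2 replicate 1, mature FL-cDC2 replicate 2 or immature FL-cDC1 replicate 2, the adjusted p was 0.0584, 0.066 and 0.0557.

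The Csf1r difference between a DC and a macrophage-like subset also depended on the culture. GM-DCs over GM-Macs exceeded mature FL-cDC2s over non-DCs by 7.39 on the log2 scale (adjusted p = 0.000918), and its adjusted p ranged up to 0.00893 over 16 alternatives. CD115 was used to sort the FLT3L pair only, so culture and sort cannot be told apart here.

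The same contrast was 4.06 for Csf3r (adjusted p = 0.0487), with 0.480 and 0.264 FPKM in GM-DCs and 0.285 and 0.0156 FPKM in mature FL-cDC2s. It lost its call with DESeq2 size factors (0.0508), with library size alone (0.0651), with the compared libraries alone (0.064), and without either non-DC, either GM-DC or either GM-Mac library, with adjusted p-values of 0.0598 to 0.134.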

How the results depend on the processing

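Of the alternatives run on single receptors, those on called differences kept the call in 427 fits and lost it in 44, with no change of direction; on differences without a call, 339 fits stayed so, 22 gained a call and 22 changed sign. Signs that changed: Kit in mature over immature FL-cDC2s was -0.28 with library size alone and -0.36 with limma at either pseudocount (-0.46 to 0.54 when leaving out libraries). Flt3 in non-DCs over GM-Macs was -0.0202 with library size (-0.62 to 2.27 leaving out libraries) and Kit there ran from -2.30 to 0.0657. Leaving out libraries gave Kit -1.75 to 0.26 in immature FL-cDC1s over immature FL-cDC2s, and in mature over immature FL-cDC1s Flt3 -0.21 to 0.28 and Kit -0.0053 to 2.00. For the difference of the maturation changes, Csf2rb was 0.39 with library size, 0.46 and 0.45 with limma, 0.0532 in the fit of the compared libraries alone and -0.30 to 0.31 leaving out libraries, Csf2rb2 was 0.0343 with limma on log2(FPKM + 1), and Kit ran from -0.10 to 1.91. Csf2ra in the comparison of cultures ran from -0.62 to 0.0470.

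The number of receptors called moved by over 1.5 times in the following comparisons; it also ran from 4 to 5 in mature over immature FL-cDC2s, 5 to 6 in non-DCs over mature FL-cDC2s, 4 to 7 in GM-DCs over GM-Macs and 3 to 5 in mature FL-cDC2s over GM-DCs. For mature over immature FL-cDC1s it was 1 with the compared libraries alone, and 1 to 2 leaving out libraries. For the difference of maturation changes it was 2 with library size, 3 with DESeq2's Wald test, 2 with limma on log2(FPKM + 1), 2 with limma on log2(FPKM + 0.1), and 0 to 1 leaving out libraries. For the comparison of cultures it was 1 with DESeq2 size factors, 1 with library size, 4 with the Wald test, 3 with limma on log2(FPKM + 1), 1 with the compared libraries, and 1 to 3 leaving out libraries. Leaving out libraries gave 0 to 4 for non-DCs over GM-Macs and 2 to 4 for immature FL-cDC1s over immature FL-cDC2s.

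Scaling by library size alone moved the median of all genes to -0.405 in mature over immature FL-cDC2s (2033 higher and 4473 lower, against 2977 and 3175 with TMM), -0.642 in non-DCs over immature FL-cDC2s (1867 and 5619, against 3182 and 3127) and -0.462 in immature FL-cDC1s over immature FL-cDC2s (681 and 2894, against 1330 and 1704). The labels do not say that replicate numbers pair the libraries, and same-numbered deviations correlated at -0.158 to 0.309. With a replicate block, 4 receptors were called in each of mature over immature FL-cDC2s and immature FL-cDC1s over immature FL-cDC2s (Csf2ra, adjusted p = 0.0722, and Csf1r, 0.0668, lost their calls), 7 and 5 in non-DCs over immature and mature FL-cDC2s, 5 in GM-DCs over GM-Macs, 3 in non-DCs over GM-Macs, 4 in mature FL-cDC2s over GM-DCs and 2 in the comparison of cultures. No block was fitted for the comparisons that use the single mature FL-cDC1 library. With 2 libraries a subset or fewer, small differences were not detectable.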

Other observations

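Cebpb, the gene of C/EBPβ and a member of the transcription factor list, was at 66.4 and 0.769 FPKM in the 2 non-DC libraries and at 36.2 and 1.85 FPKM in the 2 GM-DC libraries, while GM-Macs had 41.0 and 45.0 FPKM. The receptors of those same libraries did not part in this way, with Csf1r at 1157 and 1243 FPKM and Csf3r at 78.8 and 79.7 FPKM in non-DCs. This gene was picked out after its values were seen.

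Kit and Grb2 moved in opposite directions between the 2 immature FL-cDC1 libraries: Kit was at 84.3 and 17.3 FPKM, and the adaptor Grb2 at 17.7 and 39.2 FPKM. Pik3cd, a kinase subunit, was at 92.8 and 27.6 FPKM and Plcg2, a phospholipase, at 138.6 and 34.4 FPKM in the same libraries, in the direction of Kit. These genes were likewise picked out after their values were seen.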
